A study of Homo sapiens with 6 samples.

Results

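Oxidative phosphorylation is the last stage of respiration, in which complexes I to IV of the inner mitochondrial membrane pass electrons from NADH and succinate to oxygen and complex V makes ATP from the proton gradient. Its subunits are encoded in the nucleus and in the mitochondrion: most are nuclear genes translated in the cytosol and imported, and a small core is read from the circular mitochondrial DNA as long polycistronic RNAs that are cut into mRNAs, and both sets have to be joined into the same complexes. The genes described here were chosen by name: protein-coding genes whose symbols carry the prefixes of the subunits of complexes I to V or of the mitochondrial MT-ND, MT-CO, MT-CYB and MT-ATP genes, without the assembly factors (names containing AF), with at least 10 counts in at least 2 libraries. Of 116 genes with such a prefix among the 58336 genes of the table, 12 were assembly factors, 10 had too few counts and 94 were kept, of which 81 are nuclear and 13 mitochondrial. All 94 also passed the low-count filter of the test. The rule itself used no expression difference, but it was set with earlier results of these data known. The nuclear set holds 36 genes of complex I, 4 of complex II, 9 of complex III, 13 of complex IV and 19 of complex V. The mitochondrial set holds 7 genes of complex I, 1 of complex III, 3 of complex IV and 2 of complex V. ATP5S is in by its prefix only and is not a structural subunit of complex V. NDUFA4 and NDUFA4L2 were counted with complex IV, where NDUFA4 is now placed.

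The RNA came from SUM159, an established human triple-negative breast cancer cell line, in 6 libraries. Cells labelled ITGB4 high (1 library) and the ITGB4-low clones 1 and 3 as controls (1 library each) were grown in dishes. ITGB4 is integrin beta-4, a laminin receptor of epithelial cells. ITGB4-low cells were also recovered from mouse lungs after tail vein injection: clone 1 from a lung given bleomycin through the trachea, an agent that injures and inflames the lung (1 library), and clones 1 and 3 labelled as induced by LM2 cells (1 library each), where the protocol describes the co-injection of LM2 cells for clone 1. The lung suspensions were cultured overnight and tdTomato-positive tumour cells were sorted, whereas the controls were dish cultures for which no injection or sort is described, so the lung, the overnight recovery and the sort cannot be told apart in any lung comparison. The ITGB4-low groups are 2 clones, the ITGB4-high and bleomycin groups have 1 library, and the labels do not say that libraries of a group came from separate mice or cultures beyond the clone, so p-values cover the spread among these 6 libraries, which may in part be technical. As in any bulk sample, a lower share of cells of a kind and less RNA per cell cannot be told apart.

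Total counts ran from 13607953 to 22222121 per library. ITGB4 itself, the gene of the labels, was at 25.9 and 24.6 CPM in the controls and 383 CPM in ITGB4-high cells (CPM is the usual depth-scaled count, here with TMM library factors). In the lung libraries, which are labelled ITGB4 low, it was at 470.1 and 441 CPM with LM2 and 305 CPM with bleomycin, so at the time of measurement they were not low in ITGB4 mRNA. The basal and mesenchymal markers of the line were present at 6967 to 14376 CPM in sum. The 7 lymphocyte and 4 erythroid markers had at most 3 counts each in every library. The 10 macrophage markers summed to 2.26 to 14.6 CPM, highest in the bleomycin library, with AIF1 at 0 throughout. Their members moved in different directions. PTPRC was at 0.208 and 0.184 CPM in the controls of clones 1 and 3. It was at 2.32 and 0.255 CPM in the LM2 libraries of the same clones and 2.69 CPM in the bleomycin library. CD163 was lower in the lung libraries (0.310, 0.575 and 1.79 CPM) than in the controls (3.11 and 3.58 CPM). The 6 fibroblast markers, which mesenchymal tumour cells also express, summed to 114 CPM in each control and 466 to 776 CPM in the lung libraries. The sum was 197 CPM in ITGB4-high cells, and none of the 6 was at 0 in all libraries. The 6 did not move together. COL1A1 was at 36.2 and 29.8 CPM in the controls of clones 1 and 3. It was at 90.3 and 711 CPM in the LM2 libraries and 194 CPM in the bleomycin library. PDGFRA was at 32.5 and 35.1 CPM in the controls, 448 and 27.5 CPM with LM2 and 221 CPM with bleomycin. PDGFRB was lower in the lung libraries (6.73, 24.8 and 11.1 CPM) than in the controls (28.1 and 26.9 CPM). The 5 endothelial markers summed to 72.8 and 108 CPM in the controls against 2.55 to 11.3 CPM in the lung libraries, with CDH5 at 0 throughout. Most of the control sums was KDR alone, at 70.7 and 105 CPM. PECAM1 went the other way, at 1.80 and 2.02 CPM in the controls. It was at 2.32 and 3.64 CPM in the LM2 libraries of clones 1 and 3 and 9.41 CPM in the bleomycin library. VWF and TEK were at most 0.367 CPM. The part of any of these lists in the results below was not tested. All are human genes counted on hg38, so their levels cannot show whether mouse cells were present.

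No oxidative phosphorylation gene passed the test in any of the 5 comparisons. The comparison of the 3 lung libraries with the 2 controls asks whether respiratory transcripts differed between cells labelled ITGB4 low that were recovered from lungs and those grown in dishes. By edgeR's quasi-likelihood test with Benjamini-Hochberg adjustment over 15673 genes at a threshold of 0.05, 0 of 94 members were called there, where 0.498% of all genes were. The other comparisons called 0 of 94 members each, where 0.0319% of all genes were called for LM2 lung over control, 0.0255% for bleomycin lung over control, 0.0893% for ITGB4-high over control and 0.0% for bleomycin over LM2 lung. At such background shares fewer than 1 call would be found among 94 genes of the average kind. At an unadjusted p under 0.05, 10, 6, 7, 10 and 0 members passed in these comparisons, or 10.6%, 6.38%, 7.45%, 10.6% and 0%, against 20.5%, 15.6%, 14.5%, 24.5% and 4.61% of all genes. DESeq2 called 3 members in lung over control (UQCRC1, NDUFV2 and MT-ND6), where it called 8.06% of all genes, and 1 in ITGB4-high over control (NDUFS1, with 9.63% of all genes). Without a filter on low counts, edgeR called 3 in lung over control (MT-ND6, NDUFV2 and MT-ND2, with 6.47% of all genes), 2 in LM2 lung (MT-ND6 and NDUFV2, 5.25%), 1 in bleomycin lung (NDUFV2, 4.3%) and 2 in ITGB4-high over control (MT-ND6 and NDUFS1, 8.14%). With the LM2 library of clone 3 left out, edgeR called 1, 23, 13, 31 and 5 members in the 5 comparisons, where 6.55%, 40.8%, 27.2%, 41.6% and 19.2% of all genes were called. The 1 member in lung over control was NDUFV2. With that of clone 1 left out it called 0, 1, 16, 29 and 0, where 11.6%, 28.1% and 42.0% of all genes were called in LM2 lung, bleomycin lung and ITGB4-high over control. In these comparisons the members' share stayed below that of all genes. For every comparison but lung over control, the spread then came from the 2 controls alone.

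Most nuclear members had fold changes near 0. Their median log2 fold change in lung over control was 0.0081, with 41 of 81 higher, and that of all genes tested was 0.0028. Only 1 of the 81, NDUFV2, was past 2-fold, a share of 1.23% beside 14.8% of all genes tested. In ITGB4-high over control the nuclear median was -0.017 and 0 members were past 2-fold. By complex the lung medians were 0.01 for complex I, 0.25 for II, 0.14 for III, -0.10 for IV and -0.032 for V. The members with the lowest second-highest count were UQCRHL (21), NDUFA4L2 (41) and NDUFA13 (62), and the genes just outside the count rule were NDUFA7 (8) and ATP5MGL (2).

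The mitochondrial median lay above the nuclear median in lung over control. Set on the control of the same clone, it was above 0 in both lung libraries of clone 1 and below 0 in that of clone 3. The mitochondrial median log2 fold change was 0.17, with 11 of 13 higher, and nuclear minus mitochondrial was -0.16 on the log2 scale. Without the control of clone 1 the mitochondrial median was 0.075, with 9 of 13 higher, and without the bleomycin library 0.12, again with 9 of 13. The 13 mitochondrial genes summed to 41474 and 48517 CPM in the control libraries of clones 1 and 3, 50583 and 47083 CPM in the LM2 libraries, 54314 CPM in the bleomycin library and 43943 CPM in ITGB4-high cells. The 81 nuclear mRNAs summed to 5289, 5805, 5882, 5777, 5959.5 and 5475 CPM in the same order. These sums are not per length and serve to compare libraries only. The mitochondrial sum was thus 7.84 and 8.36 times the nuclear sum in the controls, 8.60 and 8.15 times in the LM2 libraries, 9.11 times in the bleomycin library and 8.03 times in ITGB4-high cells. The groups overlapped, since the LM2 library of clone 3 lay below the control of clone 3.

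Set against the control of its own clone, the lung libraries of clone 1 differed from that of clone 3 in their medians. The median mitochondrial log2 ratio was 0.32 in the LM2 library of clone 1 (10 of 13 higher), -0.049 in that of clone 3 (3 of 13 higher) and 0.33 in the bleomycin library of clone 1 (11 of 13 higher). The median nuclear log2 ratio was 0.089, -0.08 and 0.066 in the same libraries. The LM2 and bleomycin libraries of clone 1 share 1 control library. That control was itself lower than the other one: in clone 3 over clone 1, both cultured, the mitochondrial median was 0.21 with 13 of 13 higher and the nuclear median 0.11 with 64 of 81 higher, beside 0.03 for all genes. With the control of clone 1 left out, nuclear minus mitochondrial was -0.091 for lung over control and -0.024 for LM2 lung over control, where the median difference was -0.11. With the control of clone 3 left out, the LM2 value was -0.22. For bleomycin lung over control the difference was -0.27, and for ITGB4-high over control 0.046.

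**Figure D1:**
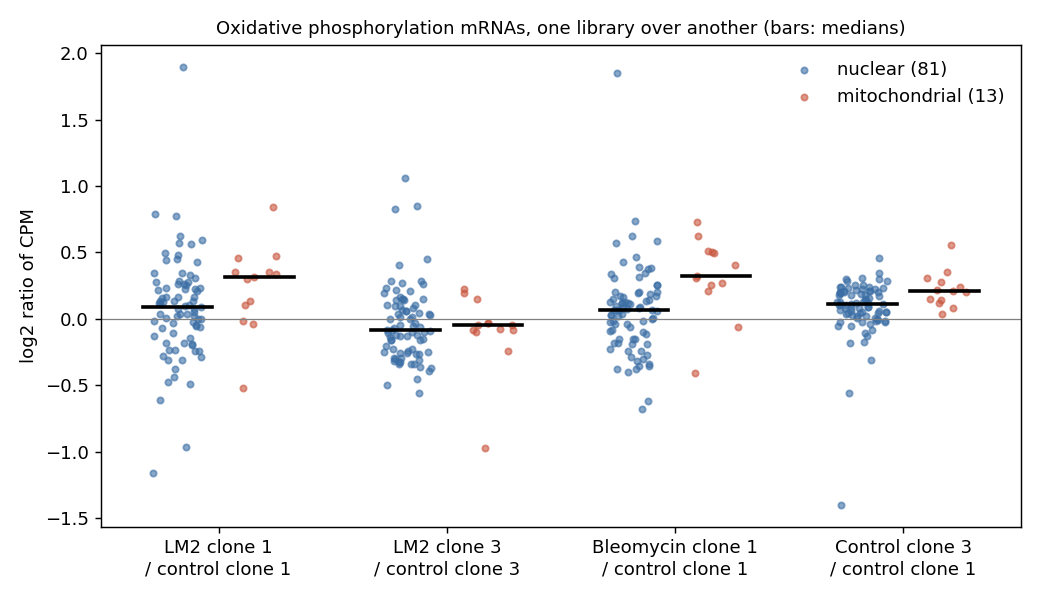
Log2 ratio of CPM (y axis, no prior count) for the 81 nuclear and 13 mitochondrial members in the 3 lung libraries over the control of their own clone and in one control over the other (x axis). Points are genes and bars medians; the mitochondrial medians sit above 0 for both clone 1 lung libraries and for the control pair, and close to 0 for clone 3.

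The mitochondrial genome has 13 protein-coding genes, 12 read from its heavy strand transcript and MT-ND6 alone from the other strand. All carry core subunits: MT-ND1 to MT-ND6 and MT-ND4L of the proton-pumping arm of complex I, MT-CYB of complex III, MT-CO1 to MT-CO3 of the catalytic core of complex IV, and MT-ATP6 and MT-ATP8 of the membrane part of complex V. MT-ND4L and MT-ND4 share an mRNA, as do MT-ATP8 and MT-ATP6, which overlap by 46 bases, in which the same letters are read in 2 frames. The overlap lies at chrM:8527-8572 (GRCh38, plus strand, inside both coding exons) and is shown because reads from it belong to both genes. The capitals mark the start codon of MT-ATP6 and the stop codon of MT-ATP8.
MT-ATP8 and MT-ATP6 overlap: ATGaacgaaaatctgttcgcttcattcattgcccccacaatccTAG

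MT-ND6 (chromosome M, 14149 to 14673, a single exon) was the mitochondrial mRNA with the lowest fold change in lung over control. It was measured at 136 and 199 CPM in the control libraries of clones 1 and 3, 94.6 and 101 CPM in the LM2 libraries of the same clones, 102 CPM in the bleomycin library and 89.6 CPM in the ITGB4-high library. The 2 controls were the highest libraries, and the lung and ITGB4-high libraries did not overlap with them. Its log2 fold change was -0.75 ± 0.18 (SE; edgeR adjusted p = 0.12) in lung over control, with a 95% interval of -1.19 to -0.31, and -0.90 ± 0.28 (SE; edgeR adjusted p = 0.148) in ITGB4-high over control. Neither passed the threshold after adjustment. The lung value ranged from -0.98 to -0.45 over the alternatives, closest to 0 without the control of clone 3. MT-ND6 made up 0.327% and 0.411% of the counts of the 13 genes in the controls, 0.187% and 0.215% in the LM2 libraries, 0.189% in the bleomycin library and 0.204% in ITGB4-high cells. Against MT-ND5, its neighbour on the opposite strand, the ratio of counts was 0.0506 and 0.0613 in the controls, 0.0280, 0.0330 and 0.0270 in the lung libraries and 0.0397 in ITGB4-high cells. The mRNA of MT-ND6 is known to lack a poly(A) tail, and the libraries were made by oligo-dT capture with a strand-marking kit. Whether counting used the strand is not given in the sources used here, and without it MT-ND6 reads and heavy strand RNA of the same stretch cannot be told apart.

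MT-ND2 and MT-CO2 stood at the other end. MT-ND2 was measured at 2583 and 2965 CPM in the control libraries of clones 1 and 3, 4637 and 3466 CPM in the LM2 libraries of the same clones, 3986 CPM in the bleomycin library and 3623 CPM in the ITGB4-high library. All 3 lung libraries lay above both controls, as did ITGB4-high cells. The log2 fold change in lung over control was 0.54 ± 0.18 (SE; edgeR adjusted p = 0.189). Relative to MT-ND1, which lies just before it on the same primary transcript, the ratio of counts was 0.787 and 0.764 in the controls, 1.15, 0.912 and 1.05 in the lung libraries and 1.16 in ITGB4-high cells. MT-CO2 was measured at 3741 and 4149 CPM in the control libraries of clones 1 and 3, 4764 and 4749 CPM in the LM2 libraries of the same clones, 6193 CPM in the bleomycin library and 5047 CPM in the ITGB4-high library. Again the lung and control libraries did not overlap, with a log2 fold change of 0.41 ± 0.18 (SE; edgeR adjusted p = 0.276) in lung over control. Its counts were 0.565 and 0.541 times those of MT-CO1 in the controls, 0.655, 0.733 and 0.775 times in the lung libraries and 0.828 times in ITGB4-high cells. Both ratios were higher in every lung library and in ITGB4-high cells than in both controls, and neither was tested. A nuclear copy of MT-ND2, the pseudogene MTND2P28 on chromosome 1, held counts equal to 3.39% of those of MT-ND2, and MTATP6P1 5.59% of those of MT-ATP6, so these mRNAs are uncertain by reads that could be assigned either way.

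The other 10 mitochondrial genes had log2 fold changes between -0.082 (MT-CYB) and 0.33 (MT-ND4L) in lung over control. MT-ND4L was at 0.33 (edgeR adjusted p = 0.257), MT-ND4 at 0.26, MT-ND5 at 0.21, MT-ATP6 at 0.18, MT-ATP8 at 0.17, MT-ND1 at 0.11, MT-ND3 at 0.10, MT-CO3 at 0.053 and MT-CO1 at 0.02. MT-CYB was the only heavy strand mRNA below 0 there, and the sign of MT-CO1 and MT-CO3 turned when the control of clone 1 or the bleomycin library was left out. Per kilobase of transcript, MT-CO3, MT-ND4 and MT-CO2 were the most abundant, at mean levels of 7023, 7009 and 6979 CPM per kilobase, and MT-ND6 the least, at 229.5.

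**Figure D2:**
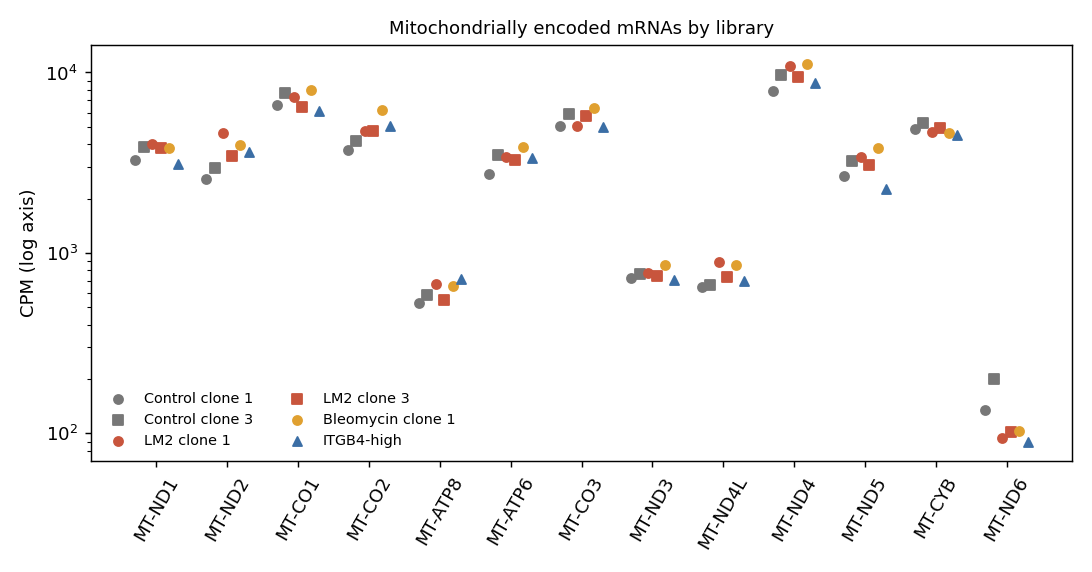
CPM (log axis) of the 13 mitochondrial genes, in gene order along the heavy strand with MT-ND6 last, with 1 point for each library. For MT-ND6 both controls lie above the other 4 libraries, and for MT-ND2 and MT-CO2 both lie below them.

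Complex I takes electrons from NADH through a peripheral arm whose core subunits are nuclear and which is surrounded by accessory subunits. The 7 nuclear core subunits had a median log2 fold change of 0.30 in lung over control, with 7 of 7 higher. The 29 accessory subunits had a median of -0.078, with 12 of 29 higher. The sets also differed in coding length, with medians of 792 bases for the core and 387 for the accessory subunits. The part of this was not tested. In ITGB4-high over control the core median was -0.12, with 2 of 7 higher. No core subunit passed the test, and the difference in medians between core and accessory subunits is a description. Over 14 alternatives 7 of 7 core members stayed higher in lung over control, except without the LM2 library of clone 1, where 6 did, with a median of 0.26. NDUFS3, NDUFS8 and NDUFV1 lie on chromosome 11, where the median log2 ratio of the other genes to the control was 0.42 in that library. By own-clone ratios the core median was 0.44, 0.23 and 0.20 in the LM2 libraries of clones 1 and 3 and the bleomycin library. Of the 7 core members, 7, 5 and 7 were higher in the same order. In the fit of bleomycin lung over control, 6 of 7 were higher.

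NDUFV2, a flavoprotein-arm subunit that holds an iron-sulphur cluster (chromosome 18, 9102630 to 9134345), had the highest fold change of the nuclear members in lung over control. Its raw counts were only 30 and 44 in the controls, 100 and 56 in the LM2 libraries of clones 1 and 3, 117 in the bleomycin library and 41 in ITGB4-high cells. In CPM these were 2.08, 2.02, 7.74, 3.57, 7.49 and 2.99. The 3 lung libraries lay above the controls, the LM2 library of clone 3 least so. The log2 fold change was 1.61 ± 0.42 (SE; edgeR adjusted p = 0.136), with a 95% interval of 0.60 to 2.62. Without the LM2 library of clone 3 it was 1.90 (edgeR adjusted p = 0.0254). A processed pseudogene, NDUFV2P1, held counts equal to 51.0% of those of NDUFV2, and 28.4% of its exon bases are shared on the same strand with AP005263.1, so the level of NDUFV2 is uncertain. NDUFB7, an accessory subunit, was the lowest nuclear complex I gene in lung over control, at 17.1 and 15.8 CPM in the control libraries of clones 1 and 3, 12.1 and 13.2 CPM in the LM2 libraries of the same clones, 11.1 CPM in the bleomycin library and 13.6 CPM in the ITGB4-high library. Its lung libraries all lay below the controls, with a log2 fold change of -0.44 ± 0.16 (SE; edgeR adjusted p = 0.219).

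NDUFS1, the largest nuclear subunit of complex I and a carrier of iron-sulphur clusters (chromosome 2, 206114817 to 206159603), came closest to the threshold of all members in any comparison. It was measured at 195 and 201 CPM in the control libraries of clones 1 and 3, 209 and 223 CPM in the LM2 libraries of the same clones, 253 CPM in the bleomycin library and 119 CPM in the ITGB4-high library. The ITGB4-high library was the lowest of the 6 and the bleomycin library the highest. The log2 fold change in ITGB4-high over control was -0.73 ± 0.16 (SE; edgeR adjusted p = 0.0941), with a 95% interval of -1.14 to -0.33, while in lung over control it was 0.20 ± 0.13 (SE; edgeR adjusted p = 0.414). NDUFB9, an accessory subunit, had the highest fold change of the nuclear members in ITGB4-high over control, 0.65 ± 0.18 (SE; edgeR adjusted p = 0.125), at 71.7 and 76.0 CPM in the control libraries of clones 1 and 3, 97.7 and 81.3 CPM in the LM2 libraries of the same clones, 79.4 CPM in the bleomycin library and 116 CPM in the ITGB4-high library. Its ITGB4-high library lay above the other 5. NDUFC2 and NDUFB5, chosen here after their values were seen, were at -0.63 (edgeR adjusted p = 0.174) and 0.61 (adjusted p = 0.115) in the same comparison.

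Complex II, succinate dehydrogenase, links the tricarboxylic acid cycle to the chain and has no mitochondrially encoded subunit. Its flavoprotein SDHA was measured at 157 and 180.5 CPM in the control libraries of clones 1 and 3, 199 and 210.0 CPM in the LM2 libraries of the same clones, 233 CPM in the bleomycin library and 132 CPM in the ITGB4-high library. The lung libraries all lay above the controls and the ITGB4-high library below them, with a log2 fold change of 0.34 ± 0.13 (SE; edgeR adjusted p = 0.23) in lung over control. SDHB, the iron-sulphur subunit, was likewise higher in the 3 lung libraries (83.9, 86.0 and 87.4 CPM) than in the controls (68.8 and 74.4 CPM), with a log2 fold change of 0.26 ± 0.11 (SE; edgeR adjusted p = 0.255). The membrane anchors did not share this: SDHC was at -0.26 ± 0.18 (SE; edgeR adjusted p = 0.433) and SDHD at 0.24 ± 0.26 (SE; edgeR adjusted p = 0.618). SDHD was 44.6 CPM in the LM2 library of clone 1 and 25.8 to 30.5 CPM in the other 5. It lies on chromosome 11, as does COX8A of complex IV.

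Complex III passes electrons from ubiquinol to cytochrome c. UQCRC1, one of its core proteins (chromosome 3, 48599002 to 48610976), had the smallest adjusted p of the members in lung over control and is named for that reason, after its values were seen. It was measured at 84.4 and 88.3 CPM in the control libraries of clones 1 and 3, 119 and 121 CPM in the LM2 libraries of the same clones, 117 CPM in the bleomycin library and 115 CPM in the ITGB4-high library. The 2 controls were below the other 4 libraries, which lay within 115 to 121 CPM. Its log2 fold change was 0.46 ± 0.11 (SE; edgeR adjusted p = 0.115) in lung over control, with a 95% interval of 0.20 to 0.72, and 0.42 ± 0.14 (SE; edgeR adjusted p = 0.169) in ITGB4-high over control. The lung value stayed between 0.44 and 0.49 over the 14 alternatives. UQCRH, the hinge protein of cytochrome c1, was at 47.8 and 56.6 CPM in the control libraries of clones 1 and 3, 66.5 and 64.8 CPM in the LM2 libraries of the same clones, 71.8 CPM in the bleomycin library and 76.6 CPM in the ITGB4-high library, with the controls again below the other libraries and a log2 fold change of 0.38 ± 0.13 (SE; edgeR adjusted p = 0.205). UQCRB, a ubiquinone-binding subunit, went the other way at -0.29 ± 0.12 (SE; edgeR adjusted p = 0.236). UQCRHL, a close copy of UQCRH, had a higher fitted value, 0.48, from 12 to 25 counts a library, with a 95% interval of -0.74 to 1.69, and its sign turned without the control of clone 3.

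Complex IV, cytochrome c oxidase, reduces oxygen and has subunits with tissue isoforms. The heart and muscle or lung forms COX4I2, COX6A2 and COX7A1 had 0 counts in every library, which allows up to 3 counts, or 0.138 to 0.232 CPM by library. The testis forms COX6B2 and COX8C had at most 2 and 1 counts. The ubiquitous forms carried the expression, with COX4I1 the most abundant nuclear complex IV mRNA per length at a mean of 228 CPM per kilobase. COX4I1 was measured at 168 and 186 CPM in the control libraries of clones 1 and 3, 188 and 199.8 CPM in the LM2 libraries of the same clones, 219 CPM in the bleomycin library and 236 CPM in the ITGB4-high library, with a log2 fold change of 0.19 ± 0.13 (SE; edgeR adjusted p = 0.434) in lung over control and 0.42 ± 0.16 (SE; edgeR adjusted p = 0.201) in ITGB4-high over control. COX6A1 (0.08), COX7A2 (0.05), COX7A2L (0.095) and COX6B1 (-0.27) had log2 fold changes that did not pass in lung over control. NDUFA4 was the lowest nuclear complex IV gene there, at 90.5 and 110.3 CPM in the control libraries of clones 1 and 3, 79.9 and 78.2 CPM in the LM2 libraries of the same clones, 83.9 CPM in the bleomycin library and 78.4 CPM in the ITGB4-high library. Its lung and ITGB4-high libraries lay below both controls, with a log2 fold change of -0.32 ± 0.13 (SE; edgeR adjusted p = 0.244). Its hypoxia-linked paralogue NDUFA4L2 was at 1.24 to 3.38 CPM with no order by group. COX8A was the highest nuclear complex IV gene, at 0.39 ± 0.19 (SE; edgeR adjusted p = 0.307), with 34.5% of its exon bases shared with AP000721.1.

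Complex V, the ATP synthase, had its catalytic beta subunit ATP5F1B as the most abundant nuclear member per length of all, at a mean of 444 CPM per kilobase. It was measured at 736 and 805 CPM in the control libraries of clones 1 and 3, 893 and 904 CPM in the LM2 libraries of the same clones, 931 CPM in the bleomycin library and 627 CPM in the ITGB4-high library. The lung libraries lay above the controls and the ITGB4-high library below, with log2 fold changes of 0.24 ± 0.13 (SE; edgeR adjusted p = 0.336) and -0.30 ± 0.17 (SE; edgeR adjusted p = 0.339). The 3 genes of the membrane ring subunit c, ATP5MC1, ATP5MC2 and ATP5MC3, encode the same mature protein, and their log2 fold changes in lung over control were -0.079, -0.12 and -0.032. ATP5IF1, which inhibits the enzyme when it runs backwards, was 35.6, 37.5 and 30.7 CPM in the lung libraries and 40.5 and 40.0 CPM in the controls, at -0.22 ± 0.14 (SE; edgeR adjusted p = 0.412). ATP5S was the lowest nuclear member of all in lung over control, at -0.51 ± 0.26 (SE; edgeR adjusted p = 0.316).

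**Figure D3:**
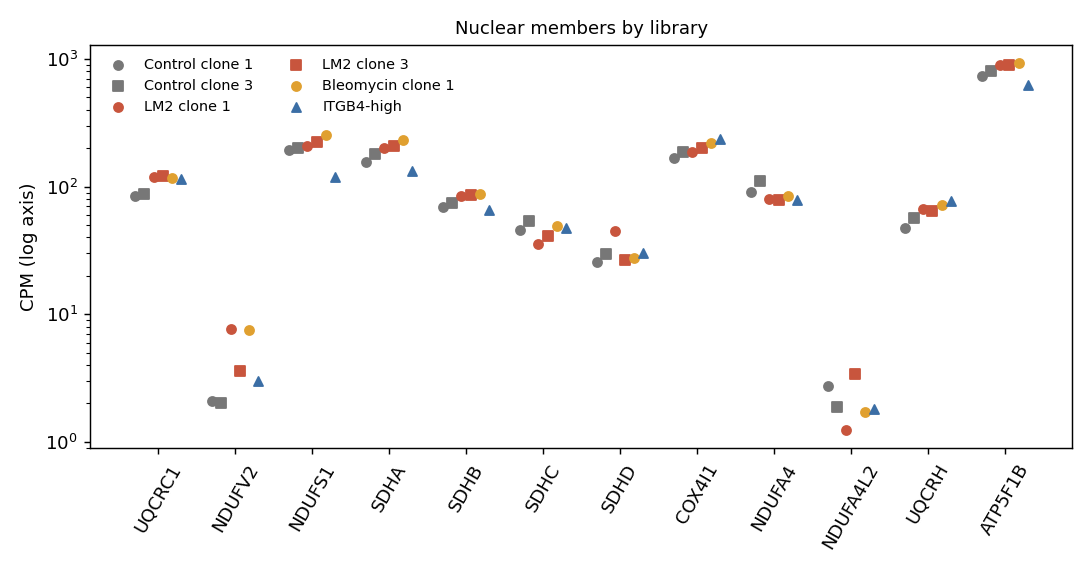
CPM (log axis) of 12 nuclear members, with 1 point for each library. For UQCRC1 and UQCRH both controls lie below the other 4 libraries, for NDUFS1 the ITGB4-high library is lowest, and NDUFV2 and NDUFA4L2 lie under 10 CPM.

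The nuclear members fell into a pattern by coding length, which the rule for the members did not use. Of the 81, the 10 with coding sequences of at least 1000 bases were all higher in lung over control. Their median log2 fold change was 0.29. Of the other 71, 31 (43.7%) were higher, with a median of -0.062. SDHA, UQCRC1 and ATP5F1B are among the 10, as are some core subunits of complex I such as NDUFS1. The 1000-base line was drawn after the values were seen. Over 14 alternatives all 10 stayed higher, except without the control of clone 1, where 9 did. Among the other protein-coding genes tested, the 8692 long ones had a median of 0.021, with 52.2% higher. The 3768 short ones had a median of -0.06, with 43.6% higher, close to the share of the short members. Across genes, Spearman's rho between coding length and log2 fold change was 0.48 over 81 nuclear members and 0.078 over 12460 other protein-coding genes, a description over genes that share the same 5 libraries. With the length of the whole transcript it was 0.16 and 0.01. In ITGB4-high over control the rho with coding length was -0.11 over the nuclear members. RNA quality was not measured, and its part in this pattern was not tested.

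**Figure D4:**
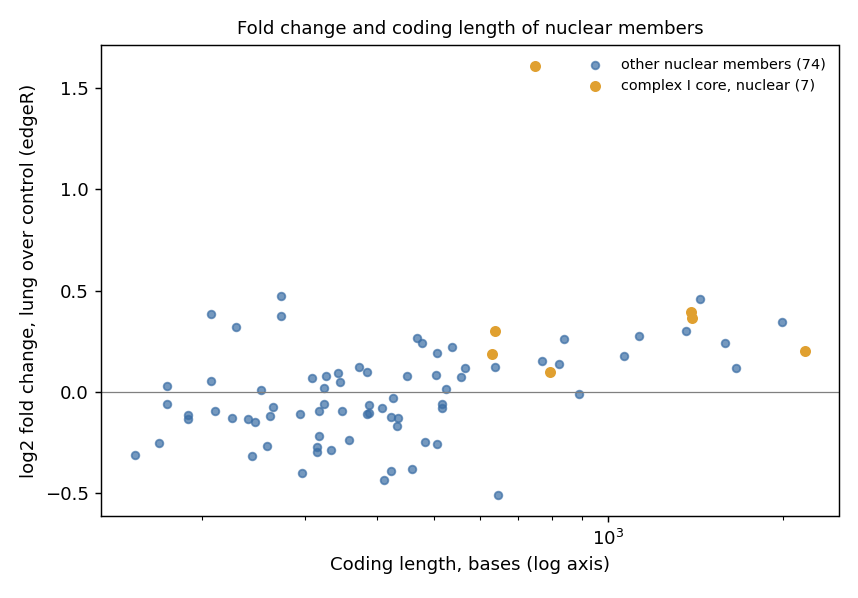
Fitted log2 fold change in lung over control (y axis) against coding length in bases (log axis) for the 81 nuclear members, with the 7 core subunits of complex I in orange. The members with at least 1000 coding bases all lie above 0, and NDUFV2 is the point near 1.6.

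In the LM2 library of clone 1 the nuclear members also differed by chromosome. The 7 members on chromosome 11 (among them NDUFV1, NDUFS8, SDHD and COX8A) had a median log2 ratio to the control of clone 1 of 0.44, and the 719 other protein-coding genes tested there 0.42. On chromosome 4 the 2 members had a median of 0.51 and the 486 other genes 0.35. The 9 members on these chromosomes had a median of 0.44 and the other 72 one of 0.043. In the LM2 library of clone 3 the chromosome 11 members were at -0.15 and the other genes there at -0.033. Across the 81 nuclear members, Pearson's r between a member's log2 ratio and the median of the genes within 10 Mb was 0.34 in the LM2 library of clone 1, 0.0053 in that of clone 3 and -0.068 in the bleomycin library, as a description over genes of 1 library pair.

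**Figure D5:**
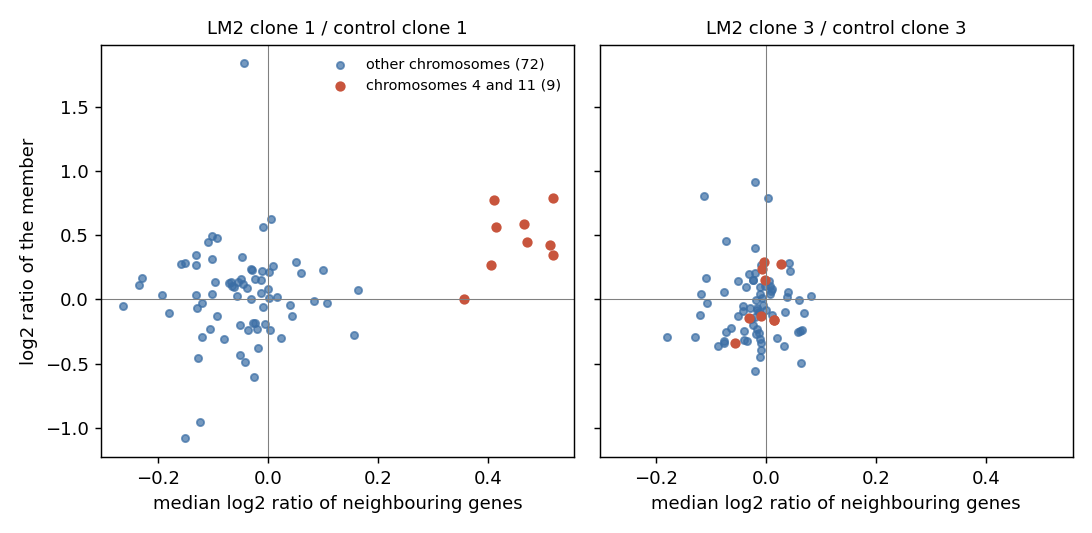
Log2 ratio of each of the 81 nuclear members to the control of the same clone (y axis) against the median log2 ratio of the protein-coding genes within 10 Mb (x axis), for the LM2 libraries of clones 1 and 3. In clone 1 the 9 members on chromosomes 4 and 11 stand apart to the right, and in clone 3 they do not.

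Most nuclear respiratory genes are known to be driven by factors such as NRF1, GABP and YY1 that bind close to the start site. RefSeq promoter sequences (GRCh38.p14; 250 bases before to 50 after the start) were matched for 65 of the 81 nuclear members and searched on both strands. The NRF1 motif was found in 16 of 65 members (24.6%), beside 9.65% of 15255 other genes and 5.78% of all 35116 promoters. The YY1 motif AAGATGGCG was found in 8 members (12.3%, beside 3.24% of other genes and 1.75% of promoters) and the GABP motif CCGGAAGTG in 4 (6.15%, beside 4.05% and 2.36%). The ERR motif TCAAGGTCA was in 1 member (1.54%, beside 0.328% and 0.353%) and the E-box CACGTG in 6 (9.23%, beside 10.9% and 7.26%). The 16 members with the NRF1 motif had a median log2 fold change of 0.018 in lung over control and the 49 without it 0.019. For YY1 the medians were 0.17 with it (8 members) and 0.0081 without (57), for GABP 0.072 (4) and 0.019 (61), and for the E-box -0.012 (6) and 0.019 (59). None of these differences was tested. The promoters of 3 members described above are shown, with matches in capitals, because they hold single or repeated matches of NRF1, YY1 and GABP. UQCRC1 (chr3:48609597-48609896, minus strand) holds a YY1 match and an NRF1 match, of which the NRF1 match is read on the opposite strand. SDHA (chr5:218070-218369, plus strand) holds 4 NRF1 matches. NDUFS1 (chr2:206159395-206159694, minus strand) holds 1 GABP match, read on the opposite strand. Another NDUFS1 promoter (chr2:206159160-206159459, minus strand) holds no match and is not shown.
UQCRC1: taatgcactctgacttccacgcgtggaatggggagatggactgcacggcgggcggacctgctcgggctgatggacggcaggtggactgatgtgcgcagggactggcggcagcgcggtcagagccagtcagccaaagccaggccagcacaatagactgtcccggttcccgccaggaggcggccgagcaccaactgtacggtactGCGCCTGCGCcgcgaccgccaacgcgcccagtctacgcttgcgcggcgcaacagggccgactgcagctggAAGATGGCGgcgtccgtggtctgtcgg
SDHA: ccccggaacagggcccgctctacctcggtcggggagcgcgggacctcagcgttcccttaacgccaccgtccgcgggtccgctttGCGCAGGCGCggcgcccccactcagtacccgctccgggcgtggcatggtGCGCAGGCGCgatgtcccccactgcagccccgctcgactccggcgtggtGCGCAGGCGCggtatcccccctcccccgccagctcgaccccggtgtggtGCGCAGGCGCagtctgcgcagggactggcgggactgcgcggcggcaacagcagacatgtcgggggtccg
NDUFS1: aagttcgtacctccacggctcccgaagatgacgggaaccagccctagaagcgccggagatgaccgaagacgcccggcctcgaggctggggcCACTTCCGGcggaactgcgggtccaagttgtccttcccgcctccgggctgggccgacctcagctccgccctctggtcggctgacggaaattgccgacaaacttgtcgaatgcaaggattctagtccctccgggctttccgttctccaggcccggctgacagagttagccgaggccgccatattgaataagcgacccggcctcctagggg

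Genes around the respiratory chain were described by 10 lists, and none had a called member in any comparison. The tricarboxylic acid cycle list, which feeds complexes I and II, had a median log2 fold change of 0.26 in lung over control, with 16 of 19 higher, its extremes being PDHX (0.68) and PDHB (-0.55) of the pyruvate dehydrogenase complex. In ITGB4-high over control its median was -0.085, with 8 of 19 higher. The assembly factors (50 tested) had a lung median of 0.03, from COA3 at -0.78 to COX18 at 0.64. The 17 genes of mitochondrial transcription and replication had 0.066, with the extremes MTERF2 at -0.64 and TFB1M at 0.70, and the 21 of mitochondrial RNA processing and stability 0.11, with 14 of 21 higher, from PTCD1 (-0.29) to REXO2 (0.33). The mitochondrial ribosome, which translates the mitochondrial mRNAs, had a median of 0.019 over 78 genes, from MRPS14 (-0.70) to MRPL2 (0.53).

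Among the remaining lists, the 80 tested genes of the cytosolic ribosome had a median of -0.18 in lung over control, with 14 of 80 higher. RPL15 (-0.67) and RPS10 (0.70) were the extremes. All 85 listed ribosomal genes took 2.48% and 3.32% of counts in the LM2 libraries of clones 1 and 3 and 3.28% in the bleomycin library. Their share was 3.86% in ITGB4-high cells, beside 3.47% and 3.53% in the controls. The uncoupling and antioxidant list (14 tested) had a median of -0.26, with 3 higher. Of these SOD2, the superoxide dismutase of the mitochondrial matrix, was at 889.6 and 1399 CPM in the controls, 5608 and 1446 CPM in the LM2 libraries of clones 1 and 3, 5101 CPM in the bleomycin library and 1398 CPM in ITGB4-high cells. Both lung libraries of clone 1 were far above their control, and the LM2 library of clone 3 was close to its own, with a log2 fold change of 1.82 (edgeR adjusted p = 0.186) in lung over control. UCP2 was the lowest of the list at -0.93, from under 1 CPM in every library. The regulators of nuclear respiratory genes (21 tested) had a median of -0.021, from KEAP1 (-0.46) to PPARG (0.80). The electron carriers and coenzyme Q synthesis genes (22) had 0.042, from COQ10A (-0.48) to SQOR (1.52), and the protein import genes (23) 0.064, from DNAJC19 (-0.27) to GRPEL1 (0.61).

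By direction alone, 26 of the 94 members lay above the control of the same clone in all 3 lung libraries, or 27.7% beside 24.0% of all genes tested, and 19 lay below it in all 3, or 20.2% beside 29.1%. The 26 hold 23 nuclear and 3 mitochondrial members (MT-ND2, MT-ND4L and MT-CO2), and the 19 hold 17 nuclear members, MT-ND6 and MT-CYB. The lung and control groups did not overlap for 24 members that were higher (20.4% of all genes) and 16 that were lower (25.4%).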

How the data were processed

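RNA sequencing counts per gene, as deposited by the authors in 1 table for the 6 libraries, were used without change. They are raw counts: whole numbers with a different total in each library. The submitters' processing notes name STAR 2.7.1a and the build hg38; the counting tool, its strand setting and any removal of mouse reads are not stated there. Gene IDs were named with GENCODE release 29 (58216 of 58336 matched). Groups and clones came from the titles in the labels.

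Library sizes were scaled by TMM, genes kept by filterByExpr at a minimum count of 10, and tests run with edgeR 4.0.16 (robust quasi-likelihood, R 4.3.3) over all 6 libraries, with the lung libraries as 1 class for lung over control and as 2 groups otherwise. Ratios to a clone's own control used log2 CPM with a prior count of 2. DESeq2 1.42.0 and limma 3.58.1 were among the alternatives. The procedure was tested on simulated data. Replicate libraries were not copies: the chi-square of their counts, divided by its degrees of freedom, was 8.67 for the controls and 80.1 for the LM2 pair. The control and LM2 libraries pair by clone in their titles, but their deviations correlated at only 0.0012 across genes.

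The members and lists were chosen with earlier results of these data known. Named by rule were the mitochondrial members, any called member, the extremes and most abundant gene of each complex in lung over control, the extremes in the other comparisons, isoform pairs, complex II, ATP5IF1, and the extremes of each list. Coordinates are GRCh38, the assembly of hg38.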

Additional observations from a re-analysis of the deposited data

Results flagged for a closer look

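For 4 of 38 named members both LM2 libraries moved one way from the control of their own clone and the single bleomycin library the other way. They were picked by sign alone, whatever the size, and some of the ratios were small. The share of all genes with such signs was not taken, and the difference was not tested. SDHC had log2 ratios of -0.38 and -0.39 in the LM2 libraries of clones 1 and 3 and 0.086 in the bleomycin library. MT-CO3 had -0.016 and -0.049 against 0.33. COX6B1 had -0.027 and -0.56 against 0.073, and COX6A1 had 0.15 and 0.093 against -0.038.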

How the results depend on the processing

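Alternative values were taken for the members called, the nuclear minus mitochondrial medians and the counts of members higher in lung over control. Of these values, 159 stayed within the spread between replicates or within 1.5 times the count, and 17 did not. The counts of members higher were added after seeing the data, and all of their values are among the 159. Their sets are too small for a rise past the range, so only a fall could have changed them. The members called were 0 in each main fit, so any call counted as a change. Without a filter on low counts, which tests 33274 genes, edgeR called 3, 2, 1 and 2 members in lung, LM2, bleomycin and ITGB4-high over control (6.47%, 5.25%, 4.3% and 8.14% of all genes). DESeq2 called 3 in lung and 1 in ITGB4-high over control (8.06% and 9.63% of all genes). The cause of these calls was not tested. Leaving out 1 library in turn gave 0 to 1 calls in lung over control, 0 to 23 in LM2, 0 to 16 in bleomycin, 0 to 31 in ITGB4-high over control and 0 to 5 in bleomycin over LM2, with fewer samples behind the spread. A library left alone in its group was assumed to vary like the others. The nuclear minus mitochondrial median then ranged from -0.23 to -0.091 in lung over control, -0.22 to -0.024 in LM2, -0.27 to -0.26 in bleomycin and 0.046 to 0.11 in ITGB4-high over control, and -0.21 to -0.15 in bleomycin over LM2. With the clone as a replicate block, in which the ITGB4-high library belongs to neither clone and was set midway between them, it was -0.15, -0.12, -0.33, 0.045 and -0.20, and the block called 0 members in each, so no member's call changed, while its calls over all genes were 39, 36, 8, 363 and 0 beside 78, 5, 4, 14 and 0. Among the members counted as higher in lung over control, leaving out 1 library gave 9 to 11 of 13 mitochondrial, 6 to 7 of 7 complex I core and 9 to 10 of 10 long coding sequences, checks added after seeing the data. Among the members named by rule, fold changes in lung over control changed sign for COX7A2 (-0.027 and -0.014), MT-CO1 (-0.056 and -0.064), MT-CO3 (-0.033 and -0.033), NDUFA4L2 (0.013 to 0.19), SDHD (-0.035), ATP5MC3 (0.10) and UQCRHL (-0.10), each on leaving out 1 library. Over those fits they ranged from -0.027 to 0.15 (COX7A2), from -0.064 to 0.13 (MT-CO1), from -0.033 to 0.16 (MT-CO3), from -0.62 to 0.19 (NDUFA4L2), from -0.035 to 0.39 (SDHD), from -0.13 to 0.10 (ATP5MC3), from -0.10 to 1.31 (UQCRHL). Other members also had values on both sides of 0 over the alternatives. Among them were the core subunit NDUFS3 (-0.035 to 0.20), ATP5ME (-0.16 to 0.17) and NDUFA3 (-0.14 to 0.19). Counts under 130 a library limit NDUFV2, NDUFA4L2, NDUFA13 and UQCRHL.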
